A study of Mus musculus with 18 samples.

Results

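The nuclear-encoded respiratory chain was followed in 18 intestinal tumours of Apc Min mice that differ in Macrod2. Its genes were taken by symbol from a table of 24062 genes: every symbol that starts with Nduf, Uqcr, Cox4i, Cox5, Cox6, Cox7 or Atp5, together with Sdha, Sdhb, Sdhc, Sdhd, Cyc1 and Cycs. The rule matched 91 symbols, and 85 had a mean count of 50 or more over the 18 tumours. They were 35 genes of complex I, 4 of complex II, 9 of complex III, 12 of complex IV, 15 of complex V, Cycs, and 9 assembly or related genes that share a symbol stem with the subunits (Ndufaf1 to Ndufaf7, Atp5s and Atp5sl). Ndufaf6, with a mean count of 135, was the member nearest the limit, and Cox6b2, with 46.2, was the nearest gene left out. The other genes left out were Ndufa4l2, with 13.8, Cox4i2, with 4.44, Cox6a2, with 0.278, and Cox7b2 and Ndufs5, both at 0.

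The tumours came from male C57BL/6 mice. All carried ApcMin/+, a truncating germline allele of the Wnt antagonist Apc that gives rise to intestinal adenomas, and there were no tumours without it. The mice were Macrod2+/+ (wt), Macrod2-/+ (het) or Macrod2-/- (hom). Macrod2 encodes an enzyme that removes ADP-ribose from proteins, and the series was designed to compare tumours by this genotype. The labels number 6 mice for each genotype, give 1 tumour for each and state no age. They place 17 tumours in the large intestine, 6 wt, 5 het and 6 hom, and het 4 in the small intestine. The last entered no comparison. Whole tumours were resected, so the RNA is a mixture of epithelium and stroma.

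The respiratory chain sits in the inner mitochondrial membrane. Complex I oxidises NADH and complex II oxidises succinate, both pass electrons through coenzyme Q to complex III, cytochrome c carries them to complex IV, and complex V uses the proton gradient to make ATP. Most subunits are made from nuclear genes and imported, while complexes I, III, IV and V also need subunits made in the mitochondrion. Intestinal enterocytes are rich in mitochondria, and absorptive differentiation is known to go with more of them. Mitochondrially encoded genes were not analysed here.

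The libraries held 13529204 to 20857918 counts. Macrod2 was at 2.93 to 4.55 CPM (counts scaled to library size) in wt, 1.61 to 3.48 in the large intestinal het tumours and 0 to 0.405 in hom. In wt 3, 27.0% of all counts fell on Rn45s, the precursor of ribosomal RNA, against at most 0.725% elsewhere. In wt 1 and wt 2, labelled large intestine, Gata4, a transcription factor of the proximal intestine, stood at 171 and 179 CPM and the lactase gene Lct at 924 and 1664 CPM. The small intestinal het 4 had 166 and 821 CPM, while the other 15 tumours had at most 47.3 CPM of Gata4 and 45.6 CPM of Lct. The sum over a list of 4 proximal identity genes, Gata4 among them, did not set these tumours apart. It was 265, 308 and 296 CPM in wt 1, wt 2 and het 4, but also 267 CPM in wt 3 and 336 CPM in hom 3. The distal Hox genes Hoxb13, Hoxd13, Hoxd10 and Hoxa13 reached at most 1.04 CPM in any tumour. They do not stand for all distal genes. A list of 5 distal identity genes, Hoxb13, Hoxd13 and Hoxa13 among them, summed to 4.31 CPM in wt 4, the lowest, and 15.02 CPM in wt 3, the highest. In wt 1, wt 2 and het 4 this sum was 6.79, 6.63 and 7.53 CPM, inside that range. Of the absorptive genes of the colon, Car1 and Aqp8 reached at most 6.59 and 7.70 CPM, while the 7 together summed to 151 to 1017 CPM. The main counts and medians below are therefore also given without wt 1 and wt 2, and without wt 3.

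Promoters of respiratory genes are known for binding sites of NRF-1 and of the ETS family factor GABP, which drive many of these genes together. RefSeq promoter windows on GRCm38.p6, from 250 bases before to 50 bases after the transcription start, were found for 69 of the 85 genes. On either strand, the palindromic NRF-1 motif occurred in windows of 18 of the 69 genes (26.1%), against 5.19% of all 27025 genes with such windows. The ETS motif CCGGAAG occurred in 16 (23.2%), against 9.93% of all genes, and the YY1 motif AAGATGGCG in 7 (10.1%), against 1.64%. An NRF-1 or ETS match was present for 30 of the 69 genes (43.5%), against 14.0% of all. The 3 motifs were searched separately, and a match may overlap another. These shares describe letters, not bound factors. The 27025 genes were not limited by expression, whereas the 69 had passed the limit on mean count. No share over expressed genes was computed, so how far the gap is particular to respiratory genes was not tested. The stretches below show such matches for a gene each of complexes I, III, IV and V, 5′ to 3′ on the gene's strand, with matches to the NRF-1 or ETS motif in capitals (CTTCCGG is CCGGAAG on the other strand). Bases inside an annotated exon are left out.
Ndufb4 (complex I, chr16:37654454-37654618, minus strand): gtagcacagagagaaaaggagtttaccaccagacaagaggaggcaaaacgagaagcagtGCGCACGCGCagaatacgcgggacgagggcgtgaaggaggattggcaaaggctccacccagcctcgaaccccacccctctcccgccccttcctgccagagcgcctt
Uqcrh (complex III, chr4:116075072-116075268, minus strand): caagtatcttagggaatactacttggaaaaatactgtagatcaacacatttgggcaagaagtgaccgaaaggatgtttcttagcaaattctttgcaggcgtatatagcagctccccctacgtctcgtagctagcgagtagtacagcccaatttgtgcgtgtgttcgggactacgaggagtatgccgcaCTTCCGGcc
Cox6a1 (complex IV, chr5:115348982-115349129, minus strand): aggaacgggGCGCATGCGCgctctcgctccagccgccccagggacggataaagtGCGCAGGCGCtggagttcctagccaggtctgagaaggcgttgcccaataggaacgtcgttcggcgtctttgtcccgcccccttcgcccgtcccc
Atp5e (complex V, chr2:174464106-174464351, minus strand): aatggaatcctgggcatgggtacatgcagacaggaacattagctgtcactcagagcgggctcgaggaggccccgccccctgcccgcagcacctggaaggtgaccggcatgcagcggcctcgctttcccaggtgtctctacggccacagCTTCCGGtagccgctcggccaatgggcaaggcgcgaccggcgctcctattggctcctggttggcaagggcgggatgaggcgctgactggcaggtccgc
Ndufb4 and Cox6a1 hold 1 and 2 NRF-1 matches in the stretches shown, and Uqcrh and Atp5e hold 1 ETS match each.

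Levels of different genes were compared as RPKM, a deposited unit that divides reads by a gene's length and by the size of its library. Over the 17 large intestinal tumours Atp5b, the catalytic beta subunit of ATP synthase, was highest at 903 ± 105 RPKM (mean ± SD, n = 17). Cox4i1 and Cox6b1, structural subunits of cytochrome c oxidase, followed at 727 ± 140 and 679 ± 165 RPKM. These differ by less than their spread. Uqcrh, the hinge protein of complex III, stood at 611 ± 145 RPKM, and complex II was lower and more even, from Sdha at 127 ± 23.2 to Sdhd at 221 ± 47.4 RPKM. In complex I, levels ran from Ndufab1, the mitochondrial acyl carrier protein, at 21.0 ± 4.95 RPKM to Ndufa6 at 365 ± 90.1 RPKM. The complex I assembly factors named here ran from Ndufaf5 at 4.79 ± 1.28 to Ndufaf2 at 27.1 ± 6.96 RPKM. Cycs, which encodes somatic cytochrome c, was at 36.6 ± 10.5 RPKM.

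Paralogs within a complex differed widely in level. Atp5g1, Atp5g2 and Atp5g3 encode the same membrane ring subunit c of complex V, and Atp5g3 stood at 620 ± 159 RPKM against 81.8 ± 25.2 for Atp5g1 and 87.2 ± 20.8 for Atp5g2. The last pair differed by less than their spread. Cox7a2, the widely expressed isoform of its subunit, was at 267 ± 70.2 RPKM and Cox7a1, the heart and muscle isoform, at 64.8 ± 39.1 RPKM. Of 84 genes with a GENCODE transcript, 39 resemble another gene and 22 an annotated pseudogene (95% identity or more over 100 bases). Reads of these may have been shared with copies. Atp5g1 resembles 12 other genes, 1 of them a pseudogene, Atp5g2 resembles 1 and Atp5g3 0. Atp5l, Cycs and Ndufab1, low in RPKM, resemble 130, 51 and 3. The part of such copies in the levels was not tested. Ndufs5 was listed at 0 in every tumour, while the row BC002163, annotated as a processed pseudogene, held 25.2 to 73.0 CPM.

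In hom against wt tumours no respiratory gene passed an adjusted p of 0.05 in edgeR's quasi-likelihood test, but nearly every estimate was below 0. Of the 85 genes 83 were lower in hom, and the median log2 fold change was -0.36, against -0.03 for all 14271 genes tested. The smallest adjusted p was 0.258. Among all genes 0.00701% passed. Without adjustment, 39 of the 85 were lower at a p under 0.05 (and 0 higher), against 10.6% of all genes and 11.6% of genes with a mean count of 50 or more. No gene of the 85 had every hom tumour below every wt tumour, which held for 0.315% of all genes. Total-count scaling moved the median of all genes from -0.03 to 0.11, and that of the 85 genes to -0.22, with 78 lower and 5 at an unadjusted p under 0.05. Under that scaling 2435 of all 14271 genes were at such a p, in either direction.

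The unadjusted count moved with single libraries. It was 66 without wt 3 and 60 without hom 2, but 15 without wt 4, 15 without hom 6, 18 without wt 2, 18 without hom 5, 19 without hom 1 and 22 without hom 4. The number among all genes, in either direction, moved as well. It was 2277 of 14271 in the full fit, 2914 without wt 3 and 2909 without hom 2. Without wt 4 it was 1341, without hom 6 1443 and without wt 2 2199. Without hom 5, hom 1 and hom 4 it was 1610, 1892 and 1810. Tumours outside this comparison moved the count of respiratory genes too. It was 27 without het 1, het 2 or het 5, with 2148, 2005 and 1952 of all genes at such a p. The median of the 85 genes was -0.42 without hom 2 and -0.24 without wt 4, the ends of its range with any 1 tumour left out. Without wt 1 and wt 2 together, 80 of the 85 estimates stayed below 0 with a median of -0.27, and 13 were lower at an unadjusted p under 0.05, against 13.0% of all genes. Without wt 1, wt 2 and wt 3, Atp5g1, Ndufa3 and Ndufaf2 passed, at -0.74, -0.64 and -0.71 (adjusted p of 0.0442, 0.0494 and 0.0352). In that fit 8.80% of all genes passed, so 3 of 85 is below the background.

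By complex, the medians in hom against wt were -0.32 for complex I, -0.33 for complex II, -0.32 for complex III, -0.43 for complex IV and -0.42 for complex V. The assembly genes had a median of -0.27 and Cycs -0.56. All 35 genes of complex I, all 4 of complex II, all 9 of complex III and all 15 of complex V were estimated lower, as were 11 of 12 in complex IV and 8 of 9 assembly genes. No difference between complexes was tested. The complex II median was -0.17 without wt 2, and that of complex I -0.19 without wt 4. The exceptions were Cox7a2l, at 0.12 (SE 0.15), and Atp5sl, among the assembly or related genes, at 0.02 (SE 0.14). Cox7a2l has been linked to supercomplexes of complexes III and IV, a role not examined in these mice.

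**Figure D1:**
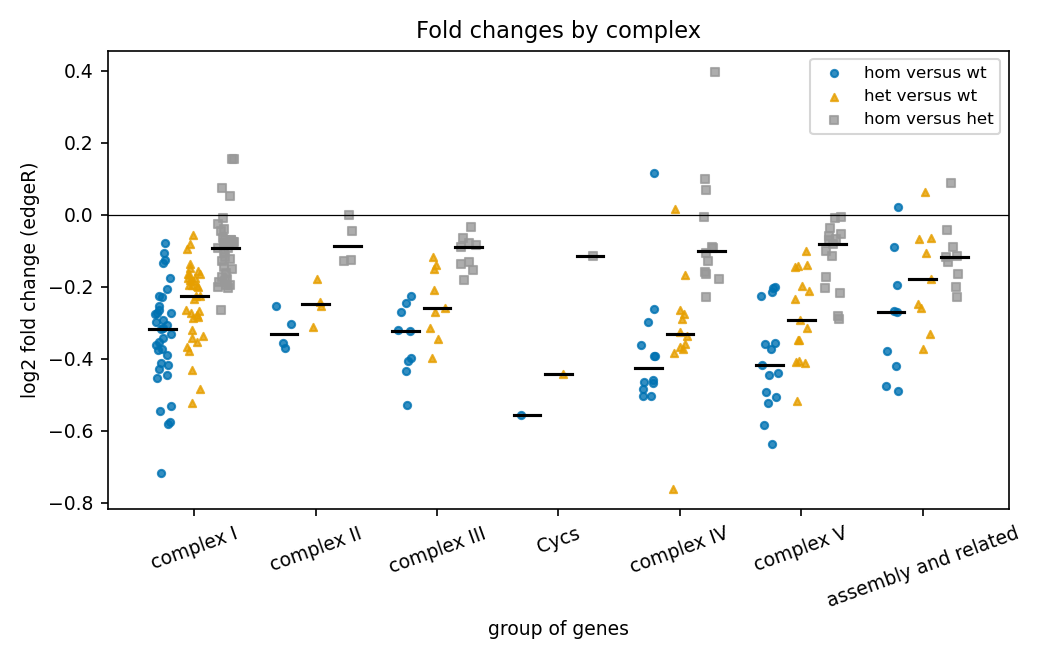
Log2 fold changes of the 85 genes by complex, each point a gene and each black bar the median, for hom versus wt, het versus wt and hom versus het. The medians in hom versus wt lie between -0.27 and -0.56, and no point passed an adjusted p of 0.05.

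In complex I the smallest p values belonged to Ndufab1, Ndufa3 and Ndufv2. Ndufab1 ran from 15.3 to 23.3 CPM (median 19.9) in wt and from 11.5 to 17.2 CPM (median 13.6) in hom. The groups overlapped, and the estimate was -0.55 (SE 0.16, adjusted p 0.258). Ndufa3, an accessory subunit, ran from 75.4 to 167 CPM (median 118) in wt and from 59.6 to 121 CPM (median 84.4) in hom, with an estimate of -0.58 (SE 0.19, adjusted p 0.258). Ndufv2, an iron-sulfur subunit of the NADH-oxidising module, ran from 133 to 262 CPM (median 209) in wt and from 132 to 204 CPM (median 150) in hom, at -0.45 (SE 0.15, adjusted p 0.261). In each of these 3 genes wt 3 lay at the bottom of its group.

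Ndufv2 belongs to the nuclear-encoded core of complex I, and the other core genes named here had estimates nearer 0. Ndufs1, the largest core subunit, had wt tumours from 110 to 141 CPM and hom tumours from 95.3 to 135 CPM, and an estimate of -0.21 (SE 0.11). Ndufv1, which binds NADH, was at 114 to 165 CPM in wt and 120 to 146 CPM in hom, with -0.13 (SE 0.10). It had the smallest spread of all 85 genes over the large intestinal tumours (SD of log2 CPM of 0.16). Ndufs3 was at -0.27 (SE 0.14), Ndufs8 at -0.30 (SE 0.16) and Ndufs7 at -0.34 (SE 0.16). Total-count scaling brought Ndufv1 to 0.02. Ndufa5, an accessory subunit of the peripheral arm, had the lowest estimate of the 85 genes at -0.72 (SE 0.25, adjusted p 0.261). Its CPM was 34.3 to 113 in wt, highest in wt 4, and 30.6 to 70.5 in hom, highest in hom 2.

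Complex II has 4 subunits, all nuclear: Sdha and Sdhb carry the flavin and iron-sulfur centres, Sdhc and Sdhd anchor them in the membrane. Sdhd was at 231 to 459 CPM (median 290) in wt and 232 to 310 CPM (median 244) in hom, with an estimate of -0.36 (SE 0.15, adjusted p 0.285). Sdhc was at -0.37 (SE 0.15, adjusted p 0.278), Sdha at -0.30 (SE 0.14) and Sdhb at -0.25 (SE 0.14). In all 4 genes the highest wt values were those of wt 1 and wt 2, as in Sdha, with 465 and 568 CPM there against 317 to 360 CPM in the other 4 wt tumours. Without these 2 tumours the complex II median was -0.06 in hom against wt.

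In complex III, Uqcrb, a small subunit near the quinone pocket, had the smallest p. It ran from 79.6 to 169 CPM (median 111) in wt and from 64.5 to 122 CPM (median 76.1) in hom, with an estimate of -0.53 (SE 0.17, adjusted p 0.258). Uqcrh was at 261 to 535 CPM in wt and 241 to 390 CPM in hom, with -0.43 (SE 0.16, adjusted p 0.265). The other subunits named here were nearer 0: cytochrome c1 (Cyc1) at -0.32 (SE 0.15), the core protein gene Uqcrc1 at -0.27 (SE 0.14) and the Rieske protein gene Uqcrfs1 at -0.25 (SE 0.14). Cycs, the carrier between complexes III and IV, was at 87.0 to 183 CPM (median 128) in wt and 75.5 to 116 CPM (median 91.5) in hom. Its wt 3 value lay within the hom range, and the estimate was -0.56 (SE 0.19, adjusted p 0.258).

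In complex IV, Cox5a, Cox6b1 and Cox6a1, all subunits around the mitochondrially made core, had the smallest p values. Cox5a ran from 186 to 427 CPM (median 314) in wt and from 170 to 292 CPM (median 218) in hom, at -0.50 (SE 0.18, adjusted p 0.261). Cox6b1 was at -0.46 (SE 0.16, adjusted p 0.261) and Cox6a1 at -0.50 (SE 0.19, adjusted p 0.264), with wt and hom tumours overlapping in both. Ndufa4, a subunit of complex IV in spite of its name, was at -0.46 (SE 0.21), Cox7b, a small membrane subunit, at -0.39 (SE 0.19) and Cox4i1 at -0.26 (SE 0.16). In Cox7a2l, hom 2 and hom 3 stood at 275 and 294 CPM, above the other 15 large intestinal tumours, which had at most 228 CPM.

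In complex V the smallest p belonged to Atp5g1. Its CPM was 48.1 to 125 (median 83.4) in wt and 44.8 to 85.4 (median 53.0) in hom. Apart from hom 2 every hom tumour was at 59.2 CPM or less, while 5 of the 6 wt tumours had 78.6 CPM or more and wt 3 had 48.1 CPM. The estimate was -0.64 (SE 0.20, adjusted p 0.258). Its paralogs were at -0.36 (SE 0.18, Atp5g2) and -0.44 (SE 0.19, Atp5g3), and these differences were not tested against each other. Atp5h, a stalk subunit, was at -0.58 (SE 0.22), and Atp5f1, also of the stalk, at -0.36 (SE 0.13, adjusted p 0.262). Atp5l, a membrane subunit and the lowest of complex V per length at 81.0 ± 21.0 RPKM, was at -0.37 (SE 0.20). Atp5b, the most abundant, ran from 1444 to 2152 CPM in wt and from 1425 to 1715 CPM in hom, with an estimate of -0.21 (SE 0.11). Among the assembly genes Ndufaf2, a complex I assembly factor, was at 14.3 to 31.9 CPM in wt and 13.8 to 18.3 CPM in hom, with -0.49 (SE 0.17, adjusted p 0.261). Ndufaf6 and Ndufaf1, of the same role, were at -0.48 (SE 0.17) and -0.27 (SE 0.12).

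**Figure D2:**
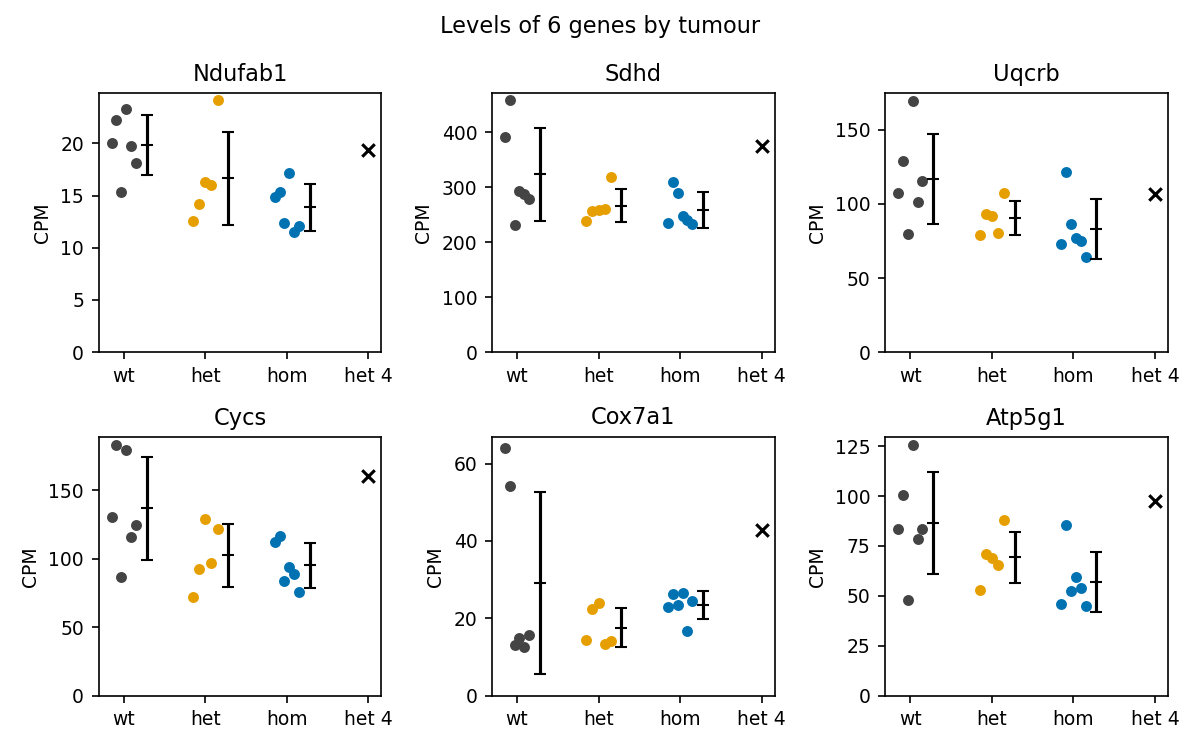
CPM of 6 genes in each tumour, with the mean and SD of each genotype beside the points and the small intestinal het 4 as a cross. Wt and hom tumours overlap in all 6, and Cox7a1 is high only in wt 1, wt 2 and het 4.

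Het tumours lay between wt and hom for most genes. In het against wt 83 of 85 estimates were below 0, with a median of -0.26 against -0.03 for all genes, and none passed in edgeR (adjusted p of 0.999 throughout). Among all genes 0% passed. Without adjustment 9 were lower at a p under 0.05 (and 0 higher), against 1.67% of all genes. The median was -0.14 without wt 4, with 77 of 85 lower, and -0.33 without wt 3. Without wt 1 and wt 2 together 69 were lower, with a median of -0.18 and 1 at an unadjusted p under 0.05. Of all 14392 genes in that fit, 1055 were at such a p in either direction. The count of 9 was 37 without wt 3 and 15 without het 6, 1 without wt 2 and 0 without wt 4, het 1 or het 5. Among all genes the number, in either direction, was 407 of 14271 in the full fit, 819 without wt 3 and 970 without het 6. Without wt 2 and wt 4 it was 346 and 328, and without het 1 and het 5 204 and 329. Tumours outside this comparison moved the count of respiratory genes too. It was 2 without hom 1 and 3 without hom 4 or hom 5, with 360, 332 and 351 of all genes at such a p. In the full fit the smallest p of the 85 genes was that of Atp5k, a small membrane subunit of complex V, at -0.52 (SE 0.21). Its CPM was 51.5, 69.7, 70.0, 66.4 and 93.7 in the het tumours and 64.8 to 137 (median 92.8) in wt. Uqcrb at -0.40 (SE 0.18), Cycs at -0.44 (SE 0.20) and Ndufb4, an accessory subunit of complex I, at -0.48 (SE 0.21) were among the 9.

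The medians by complex in het against wt were -0.23, -0.25, -0.26, -0.33 and -0.29 for complexes I to V. Het and hom were compared with the same wt tumours, so the 2 sets of estimates share them. In hom against het 77 of 85 estimates were below 0, with a median of -0.09 against -0.01 for all genes. Single tumours moved this median: it was -0.03 without het 6, with 62 of 85 lower, and -0.19 without hom 2, with 82 lower. None passed in edgeR (0.00701% of all genes did), and 0 were at an unadjusted p under 0.05, against 1.03% of all genes lower. Ndufab1 was at -0.27 (SE 0.17), and at -0.10 without het 6. Atp5g1 was at -0.29 (SE 0.21), and at -0.44 without hom 2.

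Most of the 85 genes were high and low together, tumour by tumour. The median deviation of the 85 genes from the mean of the 17 tumours, in log2 units, was 0.57 in wt 4, 0.45 in wt 2, 0.22 in wt 1, 0.14 in wt 6, 0.09 in wt 5 and -0.38 in wt 3. In hom it was 0.29 in hom 2 and 0.09 in hom 3, and -0.13 to -0.43 in the other 4. In het it ran from -0.20 in het 1 to 0.23 in het 6. So wt and hom overlapped, with wt 3 at the level of hom 1 and hom 6. Of the 85 genes 75 were highest in wt 2 or wt 4 (31.2% of all genes tested were), and 70 were lowest in wt 3, hom 1 or hom 6 (19.2%). Not every gene followed. Sdha and Ndufs1 were lowest of the 17 tumours in hom 2, at 293 and 95.3 CPM. Among wt tumours both were lowest in wt 4, at 317 and 110 CPM.

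**Figure D3:**
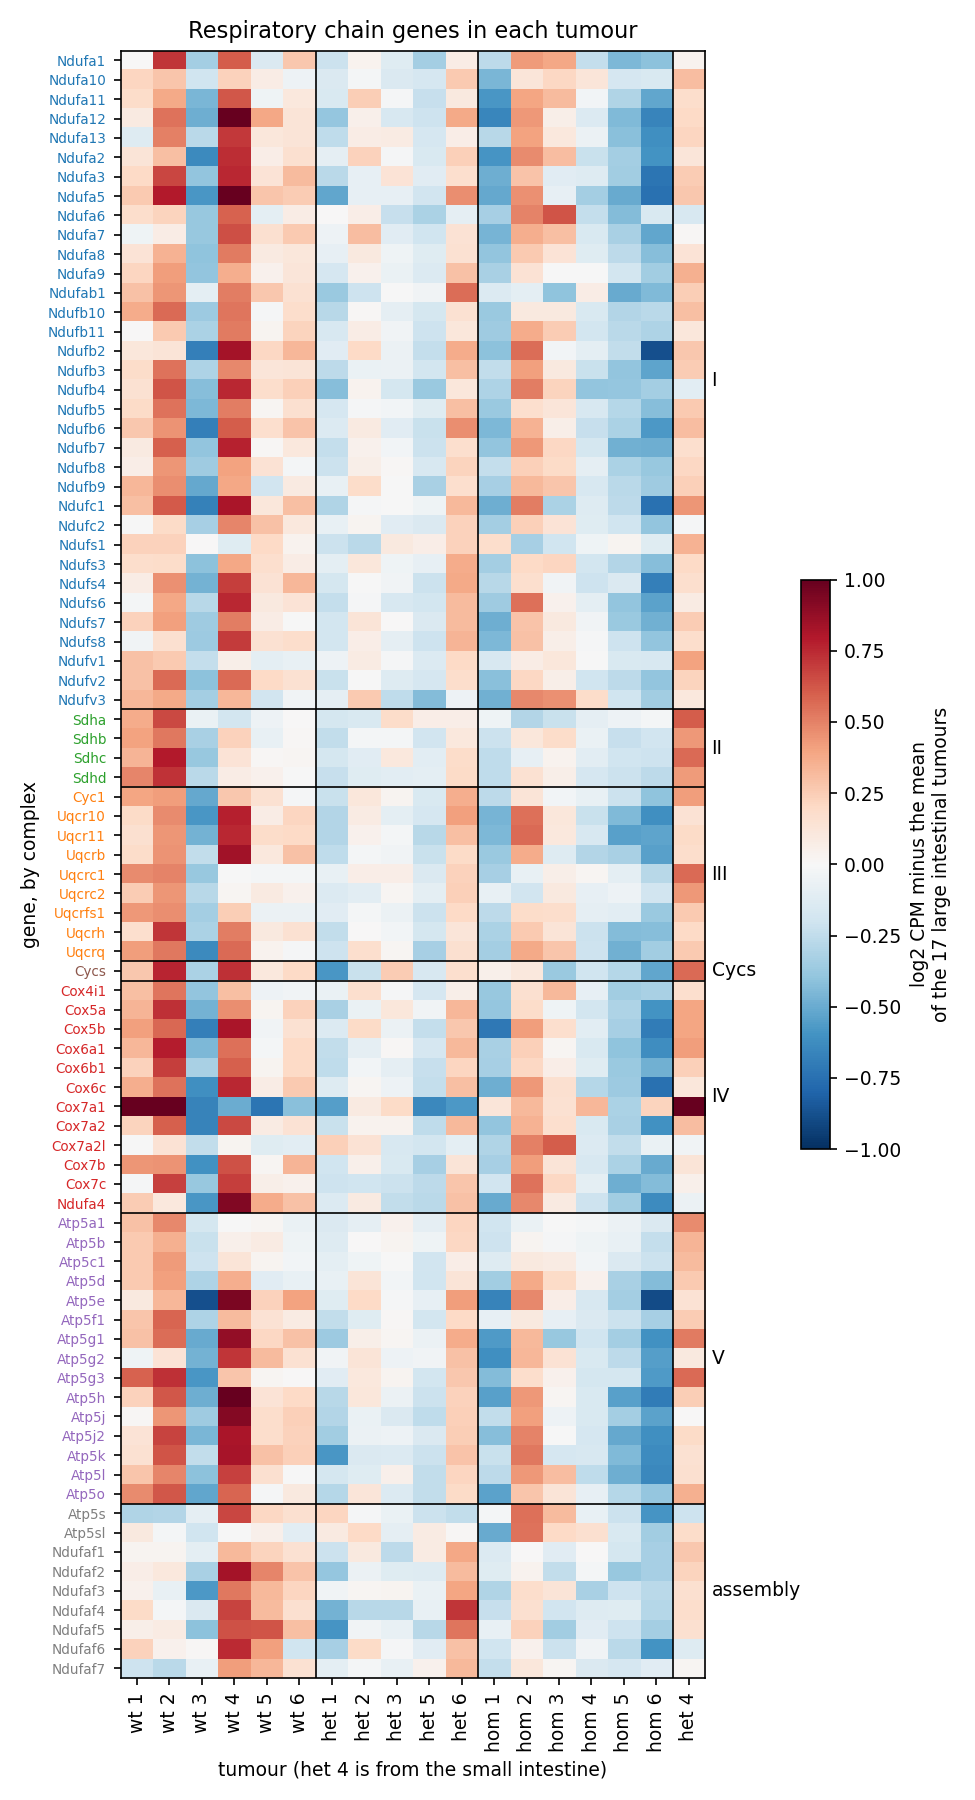
Log2 CPM of the respiratory genes reported here, each minus its mean over the 17 large intestinal tumours, genes in rows by complex and tumours in columns, with colours ending at -1 and 1. Most genes are high in wt 2 and wt 4 and low in wt 3, hom 1 and hom 6, and Cox7a1 stands apart.

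Gene length moved with these values. The 85 genes had a median length of 758 bases in the deposited table, against 2837 for all genes tested. In hom against wt, genes outside the respiratory chain had a median of -0.27 under 600 bases and -0.25 from 600 to 800 bases. It was -0.18 from 800 to 1500 bases, -0.07 from 1500 to 3000, 0.01 from 3000 to 5000 and 0.10 at 5000 bases or more. The respiratory genes in the first 4 ranges had medians of -0.43 (29 genes), -0.36 (15), -0.29 (23) and -0.22 (16), lower than the other genes in each of these ranges. Cycs, at 3059 bases, was the longest gene among complexes I to V and the carrier, and stood at -0.56.

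**Figure D4:**
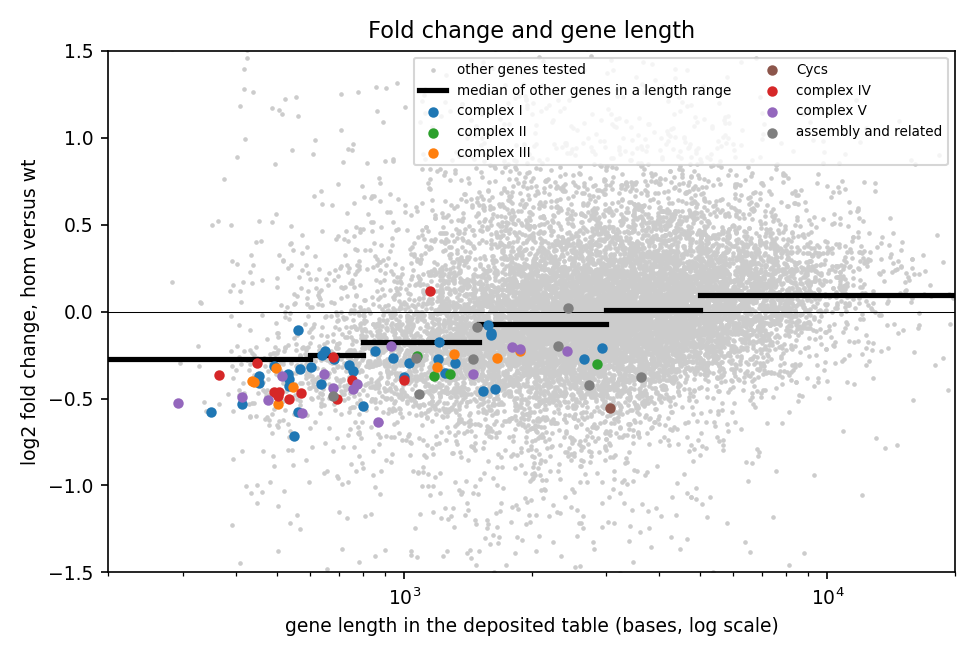
Log2 fold change in hom versus wt against gene length (log scale), with other genes in grey, their median in each length range as a black bar and respiratory genes in colour. The medians of other genes in the 2 shortest ranges are -0.27 and -0.25, and most respiratory genes are short.

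The same held tumour by tumour. In wt 4, 638 other genes under 800 bases had a median deviation of 0.63, in hom 2 of 0.44, in wt 3 of -0.31 and in hom 6 of -0.41, near the respiratory medians of these tumours. In wt 1 and wt 2 they did not follow, at -0.05 and 0.08 against 0.22 and 0.45 for the respiratory genes. A fit in which each tumour's trend on gene length was removed was added after the data were seen. It left 80 of the 85 estimates below 0 in hom against wt, with a median of -0.18, and 19 lower at an unadjusted p under 0.05, against 9.40% of all genes. None passed an adjusted p of 0.05. Cycs was at -0.54, Ndufa5 at -0.46, Atp5g1 at -0.43, Ndufv2 at -0.35 and Uqcrb at -0.27 in this fit, while Ndufa6 turned to 0.11. In het against wt 77 were below 0, with a median of -0.12, and 9 were lower at an unadjusted p under 0.05, against 1.65%.

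After this correction the respiratory medians stood at 0.25 in wt 1 and 0.39 in wt 2, above the other 15 large intestinal tumours, which ran from -0.13 to 0.07. The small intestinal het 4 was at 0.24. Of the 85 genes 65 were highest in wt 1 or wt 2 (20.1% of all genes tested were). With both the correction and without wt 1 and wt 2, 57 of 85 estimates were below 0 in hom against wt, with a median of -0.04. In that fit 10 were lower and 3 higher at an unadjusted p under 0.05, against 13.5% of all genes lower, and the het median was 0.01. The medians by complex in hom against wt were then -0.04, 0.05, 0.00, -0.03 and -0.09 for complexes I to V. The part of gene length and of the site of wt 1 and wt 2 in the genotype differences was not tested further.

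**Figure D5:**
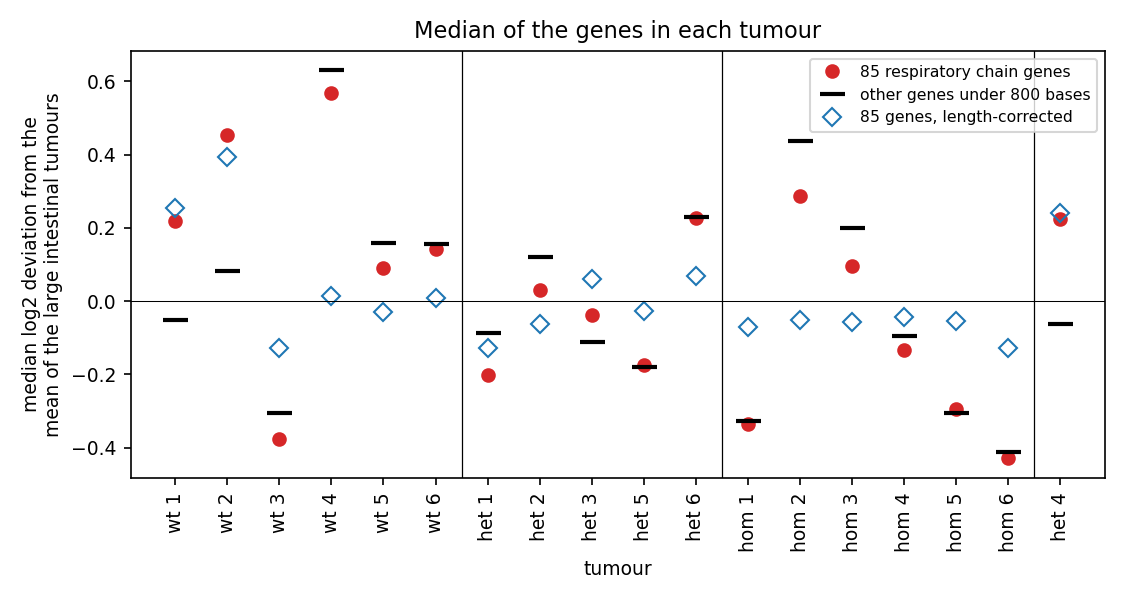
Median log2 deviation, in each tumour, of the 85 respiratory genes, of 638 other genes under 800 bases and of the 85 genes after the length trend was removed. After correction wt 1, wt 2 and het 4 lie at 0.24 or more and the other tumours between -0.13 and 0.07.

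Cox7a1 was 1 of the genes that departed from the common pattern. It stood at 64.0 CPM in wt 1, 54.2 CPM in wt 2 and 42.9 CPM in het 4, against 12.6 to 26.5 CPM in the other 15 tumours. In the other 4 wt tumours it was 12.6 to 15.7 CPM, below all 6 hom tumours, at 16.8 to 26.5 CPM. It had the largest spread of the 85 genes (SD of log2 CPM of 0.68). With all wt tumours the estimate was -0.36 in hom (SE 0.39) and -0.76 in het (SE 0.41). Without wt 1 and wt 2 these became 0.72 and 0.32, neither past an adjusted p of 0.05. Cell type marker sums are given beside it. Adipocyte markers summed to 88.7 CPM in wt 1, 148 in wt 2 and 68.8 in het 4, against 12.3 to 27.4 CPM in the other 4 wt tumours and 20.8 to 70.8 CPM in hom. Endothelial markers summed to 179, 240 and 126 CPM in these 3, against at most 99.2 CPM in the other wt tumours and 66.5 to 183 CPM in hom. B lymphocyte markers summed to 137, 290 and 154 CPM in these 3, against 2.85 to 128 CPM in the other 15 tumours. Absorptive genes of the small intestine, given below, were also highest in these 3. Of striated muscle, Myh4 was at 0 in all tumours and the 7 markers summed to 2.66 to 6.35 CPM in wt, 3.61 to 4.42 in het and 2.78 to 5.38 in hom. The part of these cells in the Cox7a1 values was not tested.

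Other genes of the same machinery, described by count and median because they were chosen with earlier results known, had estimates below 0 as well. In hom against wt 21 of 22 assembly factors of complex IV were lower (median -0.33), 5 of 5 of complex III (median -0.40) and 8 of 8 of complex I (median -0.15). Timmdc1, which builds the membrane arm of complex I, was at -0.63 (SE 0.13, adjusted p 0.258), and was called by DESeq2 (adjusted p 0.0189). Bcs1l, which inserts the Rieske protein into complex III, was at -0.52 (SE 0.16, adjusted p 0.258), and Coa4, a complex IV assembly factor, at -0.67 (SE 0.21, adjusted p 0.258). Mitochondrial protein import was lower for 23 of 24 genes (median -0.35), the mitochondrial ribosome for 76 of 77 (median -0.30) and the citric acid cycle with pyruvate dehydrogenase for 17 of 18 (median -0.18). The cytosolic ribosome, whose genes are also short, was lower for 76 of 79 (median -0.25). Glycolysis was lower for 9 of 18 genes (median 0.00). Of the regulators of respiratory gene transcription, such as Nrf1, Gabpa and Ppargc1a, 7 of 11 were lower (median -0.08). With the length correction the medians were -0.20 for import, -0.16 for the mitochondrial ribosome, -0.14 for the citric acid cycle, 0.01 for glycolysis and -0.05 for the cytosolic ribosome. With the correction and without wt 1 and wt 2 they were -0.21, -0.17, 0.01, 0.20 and -0.07, and those of the assembly factors of complexes I, III and IV -0.07, -0.40 and -0.13.

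None of these genes passed an adjusted p of 0.05 in edgeR with the 17 tumours. Without wt 1, 2 and 3, where 8.80% of all genes passed, Timmdc1 (-0.75, adjusted p 0.0337), Bcs1l (-0.72, adjusted p 0.0364) and Coa4 (-0.93, adjusted p 0.0364) did, in edgeR. So did the genes with the smallest p of some other lists: Tmem70, Uros, Hspd1, Txn2 and Mrpl42, all lower, and Pdk1, a kinase that restrains pyruvate dehydrogenase, higher at 0.76 (adjusted p 0.0470). Usmg5, Sdhaf2, Coq4, Fh1, Polg, Slc25a11, Pprc1 and Rps27l, picked in the same way, did not pass. All these genes were picked by their p in hom against wt in the 17 tumours, of which this fit uses a part. The 8.80% of all genes is therefore no background for them.

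In bulk tumours, fewer cells of a type and less RNA per cell cannot be told apart. Lists of cell type markers are given by their counts and sums, with no test of a list, and the sums of wt and hom tumours overlapped in each. In hom against wt 10 of 11 fibroblast and matrix genes were higher (median 0.57), with sums of 591 to 1034 CPM in wt, 644 to 1085 in het and 643 to 1289 in hom. Of the absorptive genes of the colon 5 of 6 were higher (median 0.42), with sums of 151 to 614, 283 to 721 and 434 to 1017 CPM. All 10 proliferation genes were lower (median -0.43), with sums of 1168 to 2215, 808 to 2039 and 625 to 1510 CPM. All 7 mast cell genes were lower (median -3.32), with sums of 38.9 to 7918, 55.5 to 1629 and 46.4 to 238 CPM, the highest in wt 2. Absorptive genes of the small intestine summed to 35583 CPM in wt 1, 53001 in wt 2 and 25156 in het 4, against 287 to 24371 CPM in the other 15 tumours. None of the defining markers of these 5 lists (Col1a1, Mki67, Mcpt1 and Lct among them) was at 0 in all tumours. Their part in the respiratory gene values was not tested. Epithelial markers were at 10451 to 19655 CPM in wt and 13284 to 15985 CPM in hom, with 4 of 7 lower and a median of -0.03.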

How the data were processed

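Per the labels' protocols, tumours were resected whole, RNA came from an AllPrep kit (Qiagen) and a stranded total RNA kit was used for sequencing, whereas the molecule label names polyA RNA. Trimmomatic, TopHat, featureCounts, Subread 1.4.5-p1 and the mm10 build are named, with no role or order, per the submitters' processing notes. No strand setting is given in the sources used here, and overlapping genes on opposite strands are therefore uncertain. The authors deposited whole-number counts for 24062 genes, and RPKM, which equalled the counts divided by length and library total and by a TMM factor.

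Counts of the 17 large intestinal tumours were filtered with filterByExpr (14271 genes), scaled by TMM and tested with edgeR 4.0.16's robust quasi-likelihood test in R 4.3.3, 1 fit for 3 genotypes, p-values being adjusted by Benjamini-Hochberg over every gene tested (threshold 0.05). All 85 respiratory genes passed the filter. Estimates and SE are on the log2 scale. CPM were scaled by TMM over 18 libraries. The length correction used lowess curves (span 0.3) of log2 CPM (prior count 2) on log2 length as offsets. The fits were tested on simulated counts. Copies were searched with blastn 2.17.0 in GENCODE vM21 transcripts.

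Titles number 1 tumour per mouse and nothing else says that tumours are independent, so p-values measure the spread between these samples. The members, gene lists and tests were chosen with earlier results of these data known. The text names, by rule, genes with the smallest p in each complex and comparison (3 in hom against wt and 2 in each other), the highest and lowest by RPKM and by spread, those above 0, and a set of core genes and isoforms; of the other lists it names those with the smallest p. Atp5e and BC002163 were added after their values were seen. Alternatives were other scalings and filters, DESeq2 and limma-voom, other sets of tumours and a replicate block; the length correction, alone and with wt 1 and wt 2 left out, was chosen after seeing the data. The separate results of some genes are not reported here.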

Additional observations from a re-analysis of the deposited data

Results flagged for a closer look

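Of 180 groups of tumours and values examined, 4 had a tumour far from the others, and chance flags about 1 in 20 such groups. In Atp5g1, hom 2 stood at 85.4 CPM, while the next hom tumour had 59.2 CPM and the lowest 44.8 CPM. In Atp5k, hom 2 stood at 111 CPM against 68.9 CPM for the next. In Sdhd, het 6 stood at 318 CPM, and the next het tumour had 260 CPM. The length-corrected median of the 85 genes was -0.13 in hom 6, and the next lowest hom tumour was at -0.07.

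The small intestinal het 4, which entered no comparison, lay above every wt tumour in 5 of the 85 genes, while 7.13% of all genes tested did so, so this count is near the background. Among the genes named it had 27.8 CPM of Atp5sl, 152 CPM of Ndufs1, 177 CPM of Ndufv1 and 419 CPM of Uqcrc1, where the highest wt tumours had 26.1, 141, 165 and 399 CPM.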

How the results depend on the processing

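No respiratory gene passed an adjusted p of 0.05 in any of the 3 comparisons under the other scalings, filters, limma-voom, DESeq2, fits of 2 genotypes or of all 18 tumours, the replicate block, the length correction or with any 1 tumour left out. In hom against wt without wt 1, 2 and 3 together 3 passed. The unadjusted count of lower genes, 39 in hom against wt, was 21 with the 2 genotypes alone, 19 with the length correction, 5 with total counts and 15 to 66 with any 1 tumour left out. It was 27 to 33 with DESeq2, its size factors, limma-voom, upper quartile scaling, other filters or all 18 tumours. Among all genes, in either direction, 2277 of 14271 were under this p in the fit reported. That number was 1898 of 13891 with 2 genotypes alone, 2246 with the length correction and 2435 with total counts. With any 1 tumour left out it was 1341 to 2914, and with DESeq2 to all 18 tumours, as listed above, 1935 to 2424. In het against wt the unadjusted count of lower respiratory genes was 9 in the fit reported. It was 4 with limma-voom and without a filter, 3 with 2 genotypes alone and 2 with all 18 tumours and with upper quartile scaling. It was 0 with total counts and 16 without wt 1, 2 and 3. Among all genes, in either direction, the number was 407 of 14271 in the fit reported. With limma-voom it was 346, without a filter 584 of 19275 and with 2 genotypes alone 233 of 13936. With all 18 tumours it was 259 of 14213, with upper quartile scaling 391 and with total counts 933. Without wt 1, 2 and 3 it was 2443 of 14561. Of 16 pairs of tumours with the same replicate number, 4 correlated above 0.1, with r from -0.45 to 0.33. Pairs of different numbers were not set beside them, so whether the numbers mark a pairing or batch cannot be told. With the replicate block the median of the 85 genes was -0.35 for hom and -0.19 for het against wt, with 32 and 0 genes lower at an unadjusted p under 0.05. Of all 14271 genes, 1894 and 165 were at such a p there, in either direction.

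With the length correction and without wt 1 and wt 2 the median of the 85 genes was -0.035 for hom against wt (complexes I to V -0.035, 0.053, 0.0014, -0.033 and -0.086) and 0.011 for het (complexes II to V 0.072, 0.050, 0.065 and 0.014). Without wt 1 and wt 2 alone, complex II was at -0.062 for hom and -0.0050 for het. Of 61 genes followed for hom against wt, 13 changed sign under at least 1 alternative. With the length correction and without wt 1 and wt 2 these were Atp5g3 (0.11), Cox4i1 (0.16), Cox7a1 (1.01), Cyc1 (0.014), Ndufa6 (0.20), Ndufb10 (0.0049), Ndufv1 (0.12), Sdhb (0.13), Sdhc (0.060), Sdhd (0.047), Uqcrc1 (0.060) and Uqcrfs1 (0.095). For het they were Cox7a1 (0.49), Sdhb (0.069) and Sdhd (0.047). Atp5sl was at -0.036 with limma-voom, -0.0063 with the replicate block and -0.085 to 0.13 with 1 tumour left out. Cox7a1 was at 0.72 for hom and 0.32 for het without wt 1 and wt 2, at 0.71 and 0.29 without wt 1, 2 and 3, and at -0.47 to 0.042 for hom with 1 tumour left out. Ndufa6 was at 0.024 with total counts, 0.11 with the length correction and -0.25 to 0.038 with 1 tumour left out. With total counts Ndufv1 was at 0.020, and Ndufv1 was at 0.035 without wt 1 and wt 2 and 0.0013 without wt 1, 2 and 3. The cause of these moves was not tested.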

Other observations

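Het 4 was the only tumour labelled small intestine. It stood above all 5 large intestinal het tumours in 37 of the 85 respiratory genes, and in 62 after the length trend was removed, against 14.2% and 14.3% of all genes tested. Its summed complex II level was 877 RPKM, against 538 to 687 RPKM in the 5 het tumours of the large intestine. In wt 1 and wt 2, which share its high Gata4 and Lct, the complex II sum was 828 and 996 RPKM, and in the other 4 wt tumours 519 to 657 RPKM. Cycs stood at 160 CPM in het 4, against 72.1 to 129 CPM in the 5 het tumours. The complex I sum of het 4 was 4804 RPKM, inside the het range of 3718 to 4893 RPKM.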
